A study of Homo sapiens with 5 samples.

Results

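Genomic imprinting leaves some genes expressed mainly from the copy inherited from a single parent. The 10 genes described here are SGCE, PEG10, PLAGL1, CDKN1C, TRAPPC9, MEST, PEG3, GRB10, NDN and IGF2R, which are imprinted in at least some human tissues. They were taken by symbol from a count table of 28278 genes, and all 10 were found in it. The table holds counts of reads per gene from HEK293T cells, an established line derived from human embryonic kidney. There were 3 libraries of untreated wild-type cells (control) and 2 libraries of cells given ascorbic acid (vitamin C). Treatment began 24 h after seeding with fresh medium every 6 h, per the labels, which give 24 h of treatment for tests of DNA methylation and 36 h for tests of RNA methylation. They name no duration for RNA sequencing itself, and no dose. No label tells whether replicates were grown apart, so the p-values reflect library-to-library spread that may be technical.

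At imprinted loci, DNA methylation laid down in the egg or the sperm marks a control region on a single parental copy, and factors such as the zinc finger proteins ZFP57 and ZNF445 with TRIM28 and DNMT1 keep that mark through cell division. Many imprinted genes act on growth. In general, genes expressed from the father's copy promote growth of the fetus and placenta, and genes expressed from the mother's copy restrain it. Ascorbic acid is a reducing agent that supports iron-dependent dioxygenases, among them the TET enzymes, which oxidise methylated cytosine. A count per gene adds the reads of both parental copies and of all transcripts of the gene, so these data hold no measure of which copy was expressed. In a bulk sample, more cells expressing a gene and more RNA per cell also cannot be told apart.

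Gene counts per library ran from 35106664 to 57212071 in the controls and from 41739602 to 48015766 with ascorbic acid. Even numbers made up 71.3 to 75.9% of the counts from 1 to 10, so a low count may stand for fewer fragments than it says. Genes were tested with edgeR's quasi-likelihood test, with p-values adjusted over 15271 genes and a threshold of 0.05. Of these, 14.3% were called, 8.53% higher and 5.76% lower with ascorbic acid, and the groups did not overlap in 43.1%. The calls numbered 1303 higher and 879 lower, and with scaling by library totals alone 1712 higher and 389 lower. Defining markers of other cell types were near 0. The 6 fibroblast markers summed to 0.211 to 0.391 CPM (counts scaled to a common library size) in the controls and 0.289 to 0.678 CPM in the treated libraries with FAP at 0, and the 4 hepatocyte markers to at most 0.107 and 0.187 CPM. The 7 blood cell markers summed to 1.5 to 1.91 and 1.73 to 1.82 CPM, with CD3E, HBB and HBG1 at 0, and the 5 keratinocyte markers to 19.9 to 24.5 and 18.9 to 24.3 CPM, nearly all of it KRT10, with KRT5 and KRT1 at 0. The 7 markers expressed in HEK293 cells summed to 43.4 to 44.9 CPM in the controls and 55.6 to 58.6 CPM with ascorbic acid. Among them NEFM (0.75, edgeR adjusted p = 3.18e-08) and ENO2 (0.47, edgeR adjusted p = 0.0475) rose, and 5 did not pass. The ENO2 call ended without control replicate 2, treated replicate 1 or treated replicate 2 (0.32 to 0.59, adjusted p = 0.0557 to 0.328), and likewise under halved counts, cyclic loess, the replicate block, limma-voom or DESeq2 (0.38 to 0.51, adjusted p = 0.0506 to 0.1695). The part of these shifts in the results below was not tested.

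Of the 10 imprinted genes, 7 had enough reads to be tested. SGCE, PLAGL1, CDKN1C and TRAPPC9 rose with ascorbic acid, while PEG10, GRB10 and IGF2R did not pass. None of the 7 was called lower in edgeR's test, where 5 were higher and 1 was lower at an unadjusted p under 0.05, against 15.3% higher and 12.7% lower of all tested genes. MEST, PEG3 and NDN had too few reads in either group to be tested. The median log2 fold change of the 7 was 0.24, against 0.00 over all tested genes. The 7 passed a filter on low counts, so neither the count nor the median speaks for the other 3. The 10 were also chosen with earlier results of these data known, so the contrast with all genes is a description only.

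**Figure D1:**
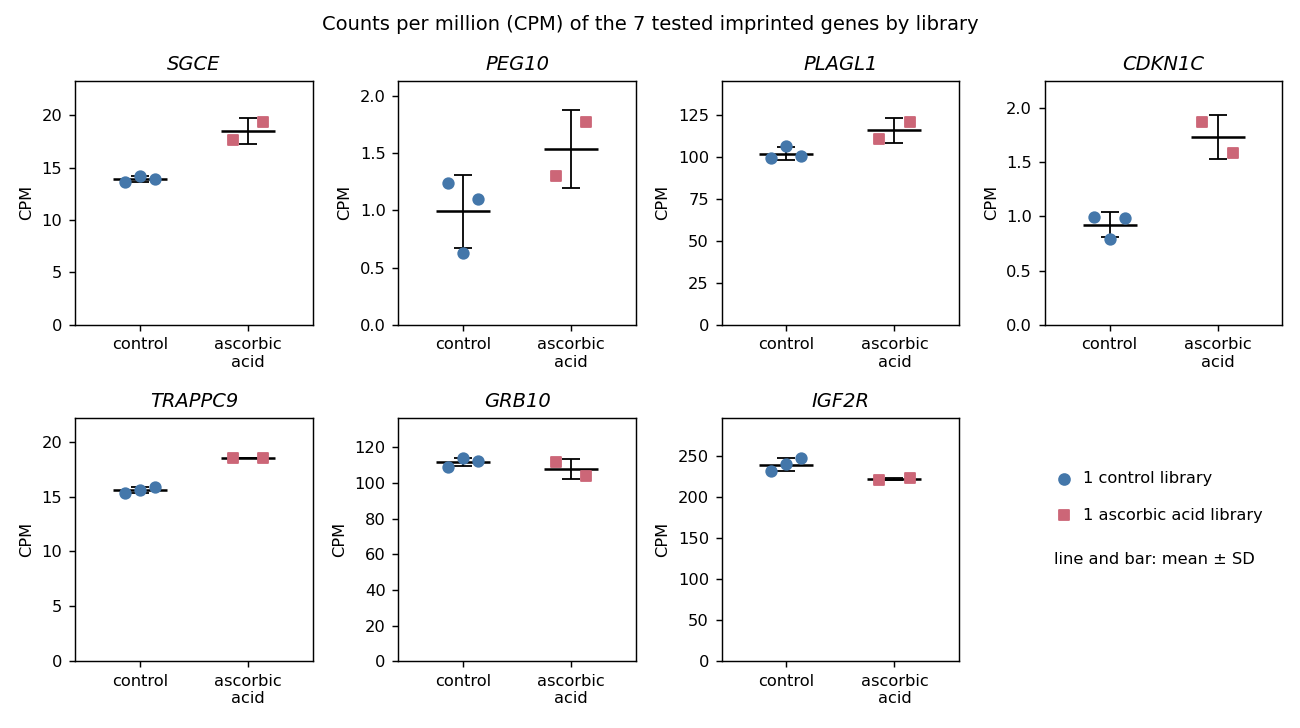
CPM (vertical axes, each from 0) of the 7 tested imprinted genes in each control library (circles) and each ascorbic acid library (squares), with the mean and SD of each group. The treated libraries lie above all controls in SGCE, PEG10, PLAGL1, CDKN1C and TRAPPC9, below all controls in IGF2R, and overlap them in GRB10. Over all tested genes, the groups did not overlap in 43.1%.

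The order of levels was read per exon length, as reads per kilobase of annotated exon, scaled to library size as CPM is (RPKM). In the controls it ran from IGF2R at 13.4 ± 0.449 RPKM (SD, n = 3) through PLAGL1 (11.7 ± 0.435), GRB10 (11.4 ± 0.241), TRAPPC9 (1.61 ± 0.0279), SGCE (0.667 ± 0.0142), CDKN1C (0.372 ± 0.0464) and PEG10 (0.148 ± 0.0478) to MEST (0.0169 ± 0.00511). PLAGL1 and GRB10 did not differ beyond their spread in the controls, and the other neighbours in this order did not overlap. With ascorbic acid the top of the order read differently, by small gaps and without a test of the order. PLAGL1 had 12.7 and 13.9 RPKM in the treated libraries, IGF2R 12.4 and 12.5 RPKM, and GRB10 11.4 and 10.6 RPKM, so that PLAGL1 lay above IGF2R in both. CDKN1C, at 0.757 and 0.642 RPKM, remained below SGCE, at 0.843 and 0.928 RPKM. Exon lengths add all annotated transcripts, so levels of genes with long rarely used exons are understated.

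SGCE and PEG10 lie back to back at an imprinted locus on chromosome 7 and are both expressed from the father's copy. SGCE encodes epsilon-sarcoglycan, a membrane glycoprotein whose loss on that copy causes myoclonus-dystonia, and PEG10 is a gene derived from a retrotransposon that is needed for placenta formation. SGCE (ENSG00000127990.17, chromosome 7, 94524204 to 94656572, minus strand, GRCh38) was at 13.6, 14.2 and 13.9 CPM in the controls and at 17.6 and 19.4 CPM with ascorbic acid. Both treated libraries were above all controls. The control mean was 13.9 ± 0.297 CPM (SD, n = 3) and the treated mean 18.5 ± 1.26 CPM (SD, n = 2). SGCE rose 1.33-fold, or by 0.41 ± 0.08 (SE) in log2 terms (edgeR adjusted p = 0.00112). This was the smallest p among the 10 genes, in place 402 of 15271. The SGCE call held in 15 of 15 alternatives to the processing that changed tool, scaling, filter or libraries (log2 fold change 0.33 to 0.48), and ended when the test was made against a fold of 1.2 (adjusted p = 0.280).

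PEG10 (ENSG00000242265.5, chromosome 7, 94656325 to 94669695, plus strand) was a low-count gene. It had 70, 24 and 38 reads in the controls, or 1.24, 0.632 and 1.10 CPM, and 63 and 76 reads with ascorbic acid, or 1.299 and 1.78 CPM. The treated libraries were higher, but the lower of them exceeded the highest control by less than the SD of the controls. The log2 fold change was 0.60 ± 0.28 (edgeR adjusted p = 0.149), with an unadjusted 95% interval of 0.04 to 1.17, so it did not pass and a change the size of that in SGCE lies within its interval. With each library left out in turn the value ran from 0.36 (without treated replicate 2) to 0.84 (without control replicate 1). SGCE and PEG10 share 219 bases of annotated exon on opposite strands, 1.05% of the exon length of SGCE and 3.27% of that of PEG10. The strand setting of the counting is unknown, and reads in that stretch are uncertain for both genes.

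On the other side of SGCE lies CASD1, a sialic acid acetyltransferase gene, whose span (94509219 to 94557019) overlaps that of SGCE without a shared exon. CASD1 had 17.9, 20.9 and 18.98 CPM in the controls and 20.4 and 25.6 CPM with ascorbic acid, so its groups overlapped. It was called higher (0.26 ± 0.09, edgeR adjusted p = 0.0452), and the call ended in 7 of 15 alternatives, among them without control replicate 1, control replicate 3 or treated replicate 2 (0.08 to 0.25, adjusted p = 0.0630 to 0.666). PPP1R9A, an actin-binding protein gene beyond PEG10 that is expressed mainly from the mother's copy in some tissues, had 0.25 ± 0.11 (edgeR adjusted p = 0.120), and passed without treated replicate 1 (0.395, adjusted p = 0.0384) and with GC and length trends removed (0.27, adjusted p = 0.03285). These 4 tested genes had positive values, and SGCE and CASD1 passed. Of all tested genes, 69.6% from 1 to 5 CPM, 61.0% from 5 to 20 CPM and 39.7% from 20 to 200 CPM had positive values.

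PLAGL1 encodes a zinc finger transcription factor (also called ZAC1) that halts the cell cycle and whose excess causes transient neonatal diabetes. In mice it lies at the centre of a network of imprinted genes that are expressed together. It is expressed from the father's copy when transcription begins at the start site inside its control region, whereas transcripts from an upstream start site have been found from both copies. The stretches before these start sites are shown because they differ in the parental copy used, while the count of PLAGL1 adds the transcripts of all its start sites. Each sequence holds the 250 bases upstream of a RefSeq transcript start (GRCh38.p14), written 5′ to 3′ along the gene's strand, and capitals mark CpG dinucleotides, the sites that DNA methylation and TET enzymes act on.
PLAGL1 inner start, chr6:144008260-144008509, minus strand: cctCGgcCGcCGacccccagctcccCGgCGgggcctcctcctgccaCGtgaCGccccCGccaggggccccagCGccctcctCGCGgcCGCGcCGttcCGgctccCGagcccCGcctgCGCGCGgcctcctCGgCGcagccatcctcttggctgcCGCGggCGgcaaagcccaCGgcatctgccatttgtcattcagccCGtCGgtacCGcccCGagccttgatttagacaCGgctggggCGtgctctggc
PLAGL1 upstream start, chr6:144064600-144064849, minus strand: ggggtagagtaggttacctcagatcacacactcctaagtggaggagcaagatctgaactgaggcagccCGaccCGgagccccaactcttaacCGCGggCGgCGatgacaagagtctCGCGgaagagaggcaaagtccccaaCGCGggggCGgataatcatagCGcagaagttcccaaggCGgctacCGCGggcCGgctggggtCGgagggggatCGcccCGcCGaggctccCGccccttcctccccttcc
The inner stretch held 32 CpG, more than 90.5% of 35116 such stretches in the RefSeq table, and the upstream stretch 21 CpG, more than 69.8%. The other 3 PLAGL1 start sites in the table had 1, 3 and 1 CpG. The motif TGCCGC, the methylated form of which ZFP57 binds, was searched on both strands. It occurred 2 times before the inner start and not before the upstream start, while 12.7% of all stretches held it at least once. The motif contains a CpG, so it is commoner in CpG-rich stretches. A match is a description of the letters and no evidence of binding. Promoter entries were found for 5 of the 10 genes, with 17 start sites, of which 4 had the motif.

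PLAGL1 (ENSG00000118495.19, chromosome 6, 143940300 to 144064599, minus strand) was at 99.3, 106 and 101 CPM in the controls and at 111 and 121 CPM with ascorbic acid. Both treated libraries were above all controls, the lower of them by less than the range of the controls. The control mean was 102 ± 3.80 CPM (SD, n = 3) and the treated mean 116 ± 7.47 CPM (SD, n = 2), a 1.14-fold rise (log2 fold change 0.18 ± 0.05, edgeR adjusted p = 0.0165). The call ended without treated replicate 2 (0.11, adjusted p = 0.239) and without control replicate 1 (0.17, adjusted p = 0.0872). HYMAI, a noncoding RNA that starts near the same inner start site and is also expressed from the father's copy, had 1.01 ± 0.171 CPM (SD, n = 3) in the controls and 0.727 ± 0.0957 CPM (SD, n = 2) with ascorbic acid. Its log2 fold change was -0.48 ± 0.31 (edgeR adjusted p = 0.319), so it did not pass, and its sign was opposite to that of PLAGL1. HYMAI and PLAGL1 share 289 exon bases on the same strand, 3.31% of the exon length of PLAGL1.

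CDKN1C encodes p57, an inhibitor of cyclin-dependent kinases that restrains fetal growth. It is expressed from the mother's copy, and its loss causes Beckwith-Wiedemann syndrome. It had the largest fold change of the tested genes among the 10, at a low level. CDKN1C (ENSG00000129757.13, chromosome 11, 2883213 to 2885773, minus strand) had 56, 30 and 34 reads in the controls and 91 and 68 with ascorbic acid. In CPM these were 0.995, 0.789 and 0.982 against 1.88 and 1.59, and the groups were separated by more than the range of either. The control mean was 0.922 ± 0.115 CPM (SD, n = 3) and the treated mean 1.73 ± 0.202 CPM (SD, n = 2). CDKN1C rose 1.87-fold, or by 0.90 ± 0.25 in log2 terms (edgeR adjusted p = 0.0145). The call ended without treated replicate 1 (0.78, adjusted p = 0.139) and when the trend of fold change with expression was removed (0.68, adjusted p = 0.0781).

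Judged by gene midpoints, the nearest tested genes on either side of CDKN1C were KCNQ1OT1 and SLC22A18, which did not pass. KCNQ1OT1, the long noncoding RNA that silences CDKN1C on the father's copy, had 8.30 ± 0.751 CPM (SD, n = 3) in the controls and 7.43 ± 0.367 CPM (SD, n = 2) with ascorbic acid (-0.16 ± 0.11, edgeR adjusted p = 0.388). SLC22A18, a transporter gene of the same domain expressed from the mother's copy, had -0.24 ± 0.34. PHLDA2, a further maternally expressed gene there that limits placental growth, had 0.528 ± 0.280 CPM (SD, n = 3) in the controls and 0.936 ± 0.134 CPM (SD, n = 2) with ascorbic acid, and did not pass (0.91 ± 0.38, edgeR adjusted p = 0.108). PHLDA2 passed with the replicate block (1.35, adjusted p = 0.0498) and without control replicate 3 (1.34, adjusted p = 0.0191). KCNQ1, the potassium channel gene within which KCNQ1OT1 lies, had 0.51 ± 0.42 and did not pass. Of 7 other genes listed as inhibitors of cyclin-dependent kinases (CDKN1A, CDKN1B, the CDKN2 genes and CDKN3), CDKN1A, which encodes p21, rose (0.30 ± 0.06, edgeR adjusted p = 0.000869) and CDKN2B, which encodes p15, fell (-0.49 ± 0.10, edgeR adjusted p = 0.00127), while 5 did not pass. The closest relative, CDKN1B, which encodes p27, had 42.3 ± 2.10 CPM (SD, n = 3) in the controls and 40.7 ± 3.85 CPM (SD, n = 2) with ascorbic acid and did not pass.

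TRAPPC9 encodes a subunit of the TRAPP tethering complex of the secretory pathway, is mutated in a recessive intellectual disability, and is expressed mainly from the mother's copy in mouse brain. TRAPPC9 (ENSG00000167632.15, chromosome 8, 139727725 to 140458579, minus strand) was at 15.3, 15.6 and 15.9 CPM in the controls and at 18.5 CPM in both treated libraries, above all controls. The log2 fold change was 0.24 ± 0.08 (edgeR adjusted p = 0.0371), a 1.18-fold rise. This call was the least stable of the 4. It ended in 7 of 15 alternatives, namely with DESeq2, the replicate number as a block or the trend with expression removed (0.21 to 0.26, adjusted p = 0.0551 to 0.0965) and without control replicate 1, control replicate 2, treated replicate 1 or treated replicate 2 (0.24 to 0.25, adjusted p = 0.08925 to 0.133), although the value itself moved little.

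PEG13, a noncoding RNA that lies within TRAPPC9 and is expressed from the father's copy, was at 0.295 ± 0.179 CPM (SD, n = 3) in the controls and 0.440 ± 0.0391 CPM (SD, n = 2) with ascorbic acid and did not pass (0.47 ± 0.47). KCNK9, a maternally expressed potassium channel gene next to TRAPPC9, had 0.84 ± 0.44 at under 1 CPM and did not pass (edgeR adjusted p = 0.212). Of 13 other tested TRAPP subunit genes 1 rose and 12 did not pass, while TRAPPC5 also passed with the replicate block (0.25, adjusted p = 0.0480) and without control replicate 3 (0.25, adjusted p = 0.0298). The riser was TRAPPC12 (0.35 ± 0.07, edgeR adjusted p = 0.000908), which ended without treated replicate 1 (0.23, adjusted p = 0.0615). TRAPPC10, which together with TRAPPC9 marks the TRAPPII form of the complex, had 33.8 ± 1.43 CPM (SD, n = 3) in the controls and 35.2 and 32.8 CPM in the 2 libraries with ascorbic acid (0.01 ± 0.07).

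IGF2R encodes the cation-independent mannose 6-phosphate receptor, which takes IGF2 to the lysosome for destruction and sorts acid hydrolases. It is expressed from the mother's copy in mice, and in humans imprinting of the gene varies between people. Per exon length it had the highest level of the 10 in the controls. IGF2R (ENSG00000197081.13, chromosome 6, 159969099 to 160113507, plus strand) was at 231, 240.1 and 247 CPM in the controls and at 221 and 223 CPM with ascorbic acid. Both treated libraries were below all controls, by a gap smaller than the range of the controls. The control mean was 239.6 ± 8.01 CPM (SD, n = 3) and the treated mean 222 ± 1.46 CPM (SD, n = 2). The log2 fold change was -0.11 ± 0.05 (edgeR adjusted p = 0.115, unadjusted 95% interval -0.20 to -0.01), and did not pass. With trends over GC content and transcript length removed, IGF2R was called lower (-0.14, adjusted p = 0.00845). The stretch before its start site is shown for comparison with that of PLAGL1.
IGF2R, chr6:159968832-159969081, plus strand: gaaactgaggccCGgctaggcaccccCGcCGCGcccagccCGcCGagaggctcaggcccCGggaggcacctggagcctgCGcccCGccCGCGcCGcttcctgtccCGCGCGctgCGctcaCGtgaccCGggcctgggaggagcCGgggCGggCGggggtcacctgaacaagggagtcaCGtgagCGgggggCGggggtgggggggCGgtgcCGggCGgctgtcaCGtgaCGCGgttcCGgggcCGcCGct
It held 33 CpG, more than 91.85% of all stretches, and no TGCCGC.

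GRB10 encodes an adaptor that binds the insulin and IGF1 receptors and dampens their signal, and is expressed from the mother's or the father's copy depending on tissue and transcript. GRB10 (ENSG00000106070.18, chromosome 7, 50590063 to 50793462, minus strand) was at 109.2, 114 and 112 CPM in the controls and at 112 and 104 CPM with ascorbic acid. The groups overlapped. Its log2 fold change was -0.05 ± 0.05 (edgeR adjusted p = 0.557), with an unadjusted 95% interval of -0.15 to 0.05, so GRB10 did not pass.

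The partners of GRB10 and IGF2R moved in both directions. Insulin and IGF signalling had 29 tested genes, of which 5 rose, 3 fell and 21 stayed short of the threshold (median log2 fold change 0.00). Among those with the smallest p were the kinase gene AKT1 (0.30 ± 0.05), the adaptor gene GRB14 (0.41 ± 0.10), the phosphatase gene PTPN1 (-0.19 ± 0.05), the binding protein gene IGFBP5 (0.25 ± 0.06) and the phosphatase gene PHLPP1 (-0.23 ± 0.06), with edgeR adjusted p from 0.000267 for AKT1 to 0.0171 for PHLPP1. GRB14 is a relative of GRB10. Its call ended without treated replicate 2 (0.34, adjusted p = 0.0710), as did PTPN1 (-0.16, adjusted p = 0.0501). The PHLPP1 call ended without control replicate 1 or treated replicate 2 (-0.19, adjusted p = 0.102 to 0.108) and under library totals (-0.19, adjusted p = 0.0542). The count of 8 calls fell to 4 without control replicate 1 and to 3 without treated replicate 2. IGF2, the imprinted growth factor that IGF2R clears, had 2 reads in each of 2 libraries and 0 in the others.

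MEST, PEG3 and NDN are expressed from the father's copy in the tissues where they are active. MEST encodes a hydrolase-like protein of mesodermal tissue. MEST (ENSG00000106484.15, chromosome 7, 130486171 to 130506465) had 6, 3 and 2 reads in the controls and 4 and 5 with ascorbic acid. This is 0.0811 ± 0.0245 CPM (SD, n = 3) and 0.0997 ± 0.0244 CPM (SD, n = 2), close to the level of 3 reads in a library, which was 0.0533 to 0.0867 CPM, and no fold is given. PEG3 encodes a large zinc finger protein linked to maternal behaviour and growth in mice, and NDN encodes necdin, a MAGE family protein of neurons that lies in the Prader-Willi region. PEG3 (chromosome 19, 56810077 to 56840728) and NDN (chromosome 15, 23685400 to 23687330) had 0 reads in all 5 libraries. With each count taken as its own fragment, this allows up to 0.0533 to 0.0867 CPM depending on the library (counting error only). Most low counts were even, so the true limit may be higher. No response of MEST, PEG3 or NDN to ascorbic acid was detectable at this depth.

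The stretch before the start of NDN is shown beside those of PLAGL1 and IGF2R because NDN, unlike them, had no reads.
NDN, chr15:23687306-23687555, minus strand: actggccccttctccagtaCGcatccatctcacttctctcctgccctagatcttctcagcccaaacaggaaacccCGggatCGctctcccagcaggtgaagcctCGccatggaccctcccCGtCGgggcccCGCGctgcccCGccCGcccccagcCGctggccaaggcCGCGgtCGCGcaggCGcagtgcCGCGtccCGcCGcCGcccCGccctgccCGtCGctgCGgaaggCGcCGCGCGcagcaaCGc
It held 30 CpG, more than 87.6% of all stretches, and 1 TGCCGC match. The neighbours of these 3 genes were taken from the tested genes, MAGEL2 aside, so that they had reads was set by the filter. COPG2, a coat protein gene that runs against MEST and shares 228 exon bases with it, had 94.5 ± 2.46 CPM (SD, n = 3) in the controls and 109.5 ± 4.92 CPM (SD, n = 2) with ascorbic acid and rose by 0.21 ± 0.05 (edgeR adjusted p = 0.00455), a call that ended without treated replicate 1 (0.16, adjusted p = 0.0633). CEP41, on the other side of MEST, had -0.01 ± 0.07. MKRN3, the paternally expressed neighbour of NDN and a regulator of puberty, had 3.01 and 3.30 CPM as group means and did not pass. MAGEL2, which lies beside NDN, had 2 reads in each of 2 libraries and 0 in the others. ZNF71 (-0.10 ± 0.11) at 184 kb and ZNF264 (-0.11 ± 0.07) at 351 kb, the nearest tested genes around PEG3, did not pass.

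Further imprinted genes from a list were examined in the same fit to set the 10 beside them. Of 59 listed symbols, 56 were in the table and 31 could be tested. FAM50B and COPG2 rose, GNAS-AS1 and UBE3A fell, and 27 did not pass. Over all tested genes 14.3% were called, 8.53% higher and 5.76% lower. The median log2 fold change of the 31 was -0.01. FAM50B, a paternally expressed gene that arose by retrotransposition, had 3.41, 3.32 and 2.98 CPM in the controls and 4.80 and 4.33 CPM with ascorbic acid (0.49 ± 0.15, edgeR adjusted p = 0.0223). GNAS-AS1, a paternally expressed antisense RNA at the GNAS locus, had 3.78, 3.68 and 3.78 CPM in the controls and 2.66 and 2.76 CPM with ascorbic acid (-0.47 ± 0.16, edgeR adjusted p = 0.0416). UBE3A, a ubiquitin ligase gene expressed from the mother's copy in neurons and lost in Angelman syndrome, had 132, 135 and 118 CPM in the controls and 113 and 115 CPM with ascorbic acid (-0.17 ± 0.05, edgeR adjusted p = 0.0275). In each of these 3 genes the groups did not overlap, as in 43.1% of all tested genes.

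The calls of those 3 genes depended on single libraries. FAM50B ended without control replicate 3, treated replicate 1 or treated replicate 2 (0.41 to 0.56, adjusted p = 0.05085 to 0.182), as well as with DESeq2, the replicate block or the trend removed. GNAS-AS1 ended without any of the 5 libraries in turn (-0.50 to -0.44, adjusted p = 0.06325 to 0.1785), as well as under library totals, DESeq2, limma-voom or the replicate block. UBE3A ended without control replicate 1, control replicate 2 or treated replicate 1 (-0.16 to -0.13, adjusted p = 0.09265 to 0.175), as well as under library totals, a filter of 5 CPM or the trend removed. GNAS-AS1 shares 1127 exon bases, 30.8% of its exon length, with GNAS on the opposite strand, and GNAS was at 1005 ± 27.9 CPM (SD, n = 3) in the controls, so reads of the antisense RNA are uncertain. By expressed copy, 1 of 12 tested paternal genes rose and 1 fell, 1 of 14 tested maternal genes fell, and 1 of 5 genes whose copy depends on the transcript rose. The shares over all tested genes were 8.53% higher and 5.76% lower. Of the 56 genes in the table, 15 had 0 reads in all libraries, among them the growth-related genes DLK1 and MEG3. SNRPN and SNURF were also listed at 0, but they share exons with each other (814 bases), and how reads of overlapping genes were counted is unknown.

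**Figure D2:**
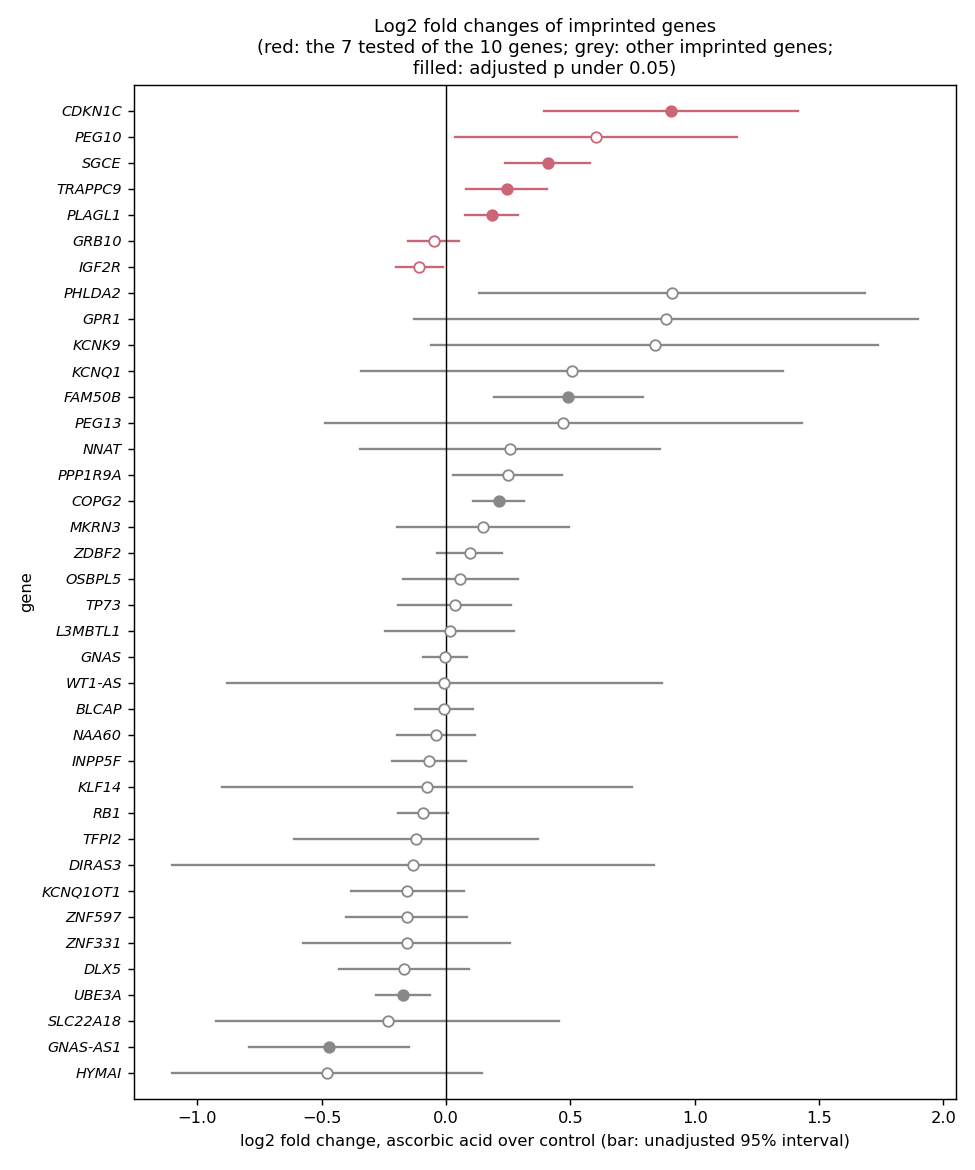
Log2 fold changes (horizontal axis, ascorbic acid over control) with unadjusted 95% intervals for the 7 tested genes of the 10 (red) and 31 other imprinted genes (grey), filled where the adjusted p is under 0.05. CDKN1C, SGCE, TRAPPC9 and PLAGL1 are filled to the right of 0, while the filled grey points lie on both sides.

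Fold changes in this experiment varied with expression. In the 2284 genes from 1 to 5 CPM, where CDKN1C (0.90) and PEG10 (0.60) lie, the median log2 fold change was 0.15. It was 0.05 in the 2810 genes from 5 to 20 CPM, where SGCE (0.41) and TRAPPC9 (0.24) lie. In the 6862 genes from 20 to 200 CPM, where PLAGL1 (0.18) and GRB10 (-0.05) lie, it was -0.03. In the 913 genes from 200 CPM, where IGF2R (-0.11) lies, it was -0.07. The 4 genes that rose were each above the median of their own range, which follows largely from their being called higher. PEG10 was also above the median of its range, and GRB10 and IGF2R were slightly below theirs. Called higher were 14.5, 13.6 and 6.47% of genes in the ranges from 1, 5 and 20 CPM, against 1 of 2, 2 of 2 and 1 of 2 of these genes. As the genes were chosen with earlier results known, these shares are a description only. After the trend was removed by cyclic loess and limma, SGCE (0.37, adjusted p = 0.00529) and PLAGL1 (0.22, adjusted p = 0.00685) were still called.

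**Figure D3:**
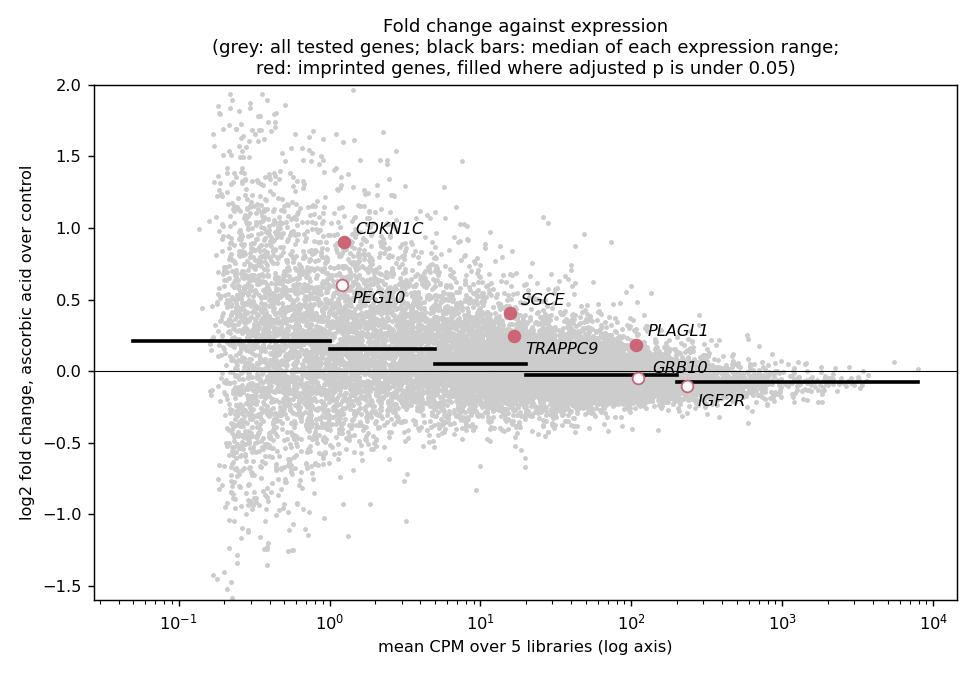
Log2 fold change (vertical axis) against mean CPM (horizontal axis, log scale) for all tested genes (grey, 19 beyond the axis), with the median of each expression range (black bars) and the 7 tested imprinted genes (red, filled where called). Low-expressed genes have higher medians, and CDKN1C, SGCE, TRAPPC9 and PLAGL1, which were called higher, and PEG10 lie above the bar of their range.

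Factors that keep imprints were for the most part not called. Of 14 tested imprint maintenance genes 1 fell and 13 did not pass. HELLS, a chromatin remodeller needed for DNA methylation, fell (-0.16 ± 0.05, edgeR adjusted p = 0.0302), and its call ended without control replicate 1, control replicate 2 or treated replicate 1 (-0.15 to -0.12, adjusted p = 0.110 to 0.182), and under library totals, the 5 CPM filter or cyclic loess (-0.14 to -0.12, adjusted p = 0.0697 to 0.142). Under those 3 settings the list had 1 gene higher (SETDB1, a histone methyltransferase gene) and none lower, and with GC and length trends removed 1 higher and 2 lower. TRIM28, the co-repressor recruited to imprinted control regions, had 668 ± 39.4 CPM (SD, n = 3) in the controls and 638 ± 41.0 CPM (SD, n = 2) with ascorbic acid (-0.07 ± 0.05). TRIM28 was called lower with GC and length trends removed (-0.14, adjusted p = 0.00543) and had 0.01 with cyclic loess. DNMT1, the maintenance methyltransferase, had -0.04 ± 0.04 and ZNF445 0.00 ± 0.05. ZFP57 had 2 reads in each of 2 libraries and 0 in the others.

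Relatives of SGCE, PEG10 and NDN were also read from lists. Of 11 tested genes of the sarcoglycan and dystroglycan complex 2 rose, 1 fell and 8 did not pass. SSPN, which encodes sarcospan, went from 1.599, 1.68 and 1.56 CPM to 3.30 and 2.90 CPM (0.94 ± 0.19, edgeR adjusted p = 0.000864), and the dystroglycan gene DAG1 fell (-0.21 ± 0.05, edgeR adjusted p = 0.00214). SGCB, the other sarcoglycan gene that was tested, had 0.07 ± 0.06. Of 19 tested retrotransposon-derived and PNMA genes 3 rose and 16 did not pass. ZCCHC12, a PNMA family gene, had 33.9, 34.8 and 36.9 CPM in the controls and 71.5 and 64.7 CPM with ascorbic acid (0.95 ± 0.06, edgeR adjusted p = 3.34e-12), and PNMA8A rose by 0.46 ± 0.06 (edgeR adjusted p = 7.07e-06). RTL5, the third, had 0.35 ± 0.12 (edgeR adjusted p = 0.0499), and its call ended without control replicate 1, control replicate 2, treated replicate 1 or treated replicate 2 (0.32 to 0.35, adjusted p = 0.1415 to 0.177). Of 11 tested MAGE genes, the relatives of NDN, MAGED2 rose (0.29 ± 0.05, edgeR adjusted p = 0.000137) and 10 did not pass.

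The nearest tested genes around the remaining loci were read from the same fit. Around PLAGL1, LTV1 had -0.08 ± 0.05, and around GRB10, FIGNL1 had 0.01 ± 0.05 and COBL -0.08 ± 0.08. The nearest tested genes to IGF2R were PNLDC1 (0.00 ± 0.41) at 148 kb and the kinase gene MAP3K4 at 878 kb, which rose (0.37 ± 0.05, edgeR adjusted p = 8.67e-06) while IGF2R had a negative value.

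**Figure D4:**
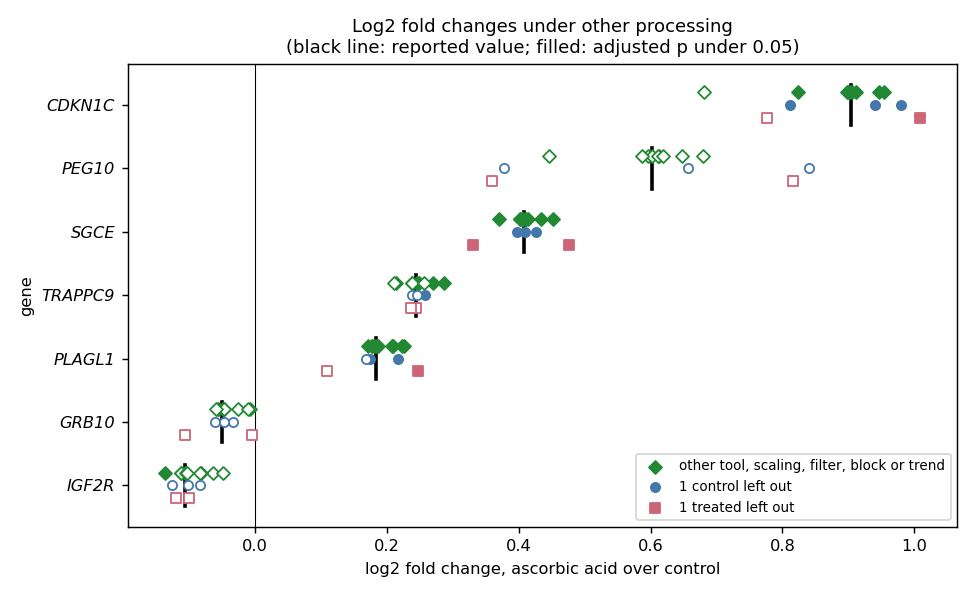
Log2 fold changes (horizontal axis) of the 7 tested imprinted genes as reported (black lines), under other tools, scalings, filters, the replicate block and trend removal (diamonds), and without 1 control (circles) or 1 treated library (squares), filled where the adjusted p is under 0.05. No symbol crosses 0, SGCE is filled throughout, and PLAGL1, CDKN1C and TRAPPC9 each have some open symbols. IGF2R is filled only with GC and length trends removed, and PEG10 and GRB10 are open throughout.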

How the data were processed

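RNA captured on mRNA beads was sequenced from 3 control and 2 ascorbic acid treated samples of HEK293T cells. The authors deposited raw read counts per gene symbol. STAR, featureCounts, Trimmomatic 0.39, DESeq2 and build GRCh38 are named in the submitters' processing notes. Annotation, strandedness and treatment of shared reads: not given in the sources used here. Columns were assigned by name, reading "con" as control and "vc" as vitamin C. Totals per library, from 35106664 to 57212071, give genes near 1 CPM few reads and low precision.

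Counts were filtered (filterByExpr), scaled with TMM factors and tested with edgeR 4.0.16 in R 4.3.3 (glmQLFit, robust, two-sided) over 5 libraries. The Benjamini-Hochberg adjustment ran over 15271 genes, and standard errors and 95% intervals derive from the F statistic. The script was tested on simulated data, where it recovered 56% of genes changed 1.2-fold and 98% of those changed 2-fold. Of 192 calls in that simulation, 18 were false. With each count taken as its own fragment, replicates differed by more than counting noise (chi-square per degree of freedom 3.96 to 7.27). Most low counts were even, so the excess may be smaller than these values show. Replicates were kept separate.

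Positions and lengths come from GENCODE 29, to which 26129 of 28278 symbols matched, and start-site sequences from RefSeq (GRCh38.p14). The GC and length correction covered 96.6% of tested genes. The 10 genes and the 17 gene lists (278 entries) were chosen with earlier results of these data known. Named from lists were all called genes where at most 6 passed, otherwise the 6 with the smallest p, besides partners and nearest tested neighbours of the 10. Nearest was judged by gene midpoints, so a long gene can reach closer than the neighbour named. Some genes this rule names are not reported here. DLK1, MEG3, SNRPN, SNURF, CDKN1B, SGCB and TRAPPC10 were chosen after their values were seen where they fall outside that rule. Alternatives were DESeq2 1.42.0, limma-voom (limma 3.58.1), DESeq2 size factors, library totals, no filter, 5 CPM in 2 libraries, the replicate block, a test against a fold of 1.2, cyclic loess, halved counts, GC and length removal with mgcv 1.9.3, and each library left out.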

Additional observations from a re-analysis of the deposited data

How the results depend on the processing

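The 7 tested genes kept their direction in every alternative that tested them (the 5 CPM filter leaves out CDKN1C and PEG10), and SGCE kept its call in all but the test against a fold of 1.2. Against that fold 286 genes were called in all, and 0 of the 10 (2 at an unadjusted p under 0.05) and 0 of the other imprinted genes (2 higher and 1 lower at an unadjusted p under 0.05). With cyclic loess these counts were 1447, 2 and 2. With GC and length trends removed, 4 of the 10 were called higher and 1 (IGF2R) lower. Other imprinted genes numbered 2 with library totals, 1 with the 5 CPM filter (15 tested) and 2 with DESeq2. With each library left out in turn, calls ranged from 1180 (without control replicate 1) to 2047 over all genes, from 2 to 4 among the 10, and from 2 to 3 among other imprinted genes. Among the 10 the count was 2 without control replicate 1 (SGCE and CDKN1C), without treated replicate 1 (SGCE and PLAGL1) and without treated replicate 2 (SGCE and CDKN1C). Where 1 treated library remains, its spread is taken from the controls. The causes were not tested. The replicate number as a block gave 1880 calls over all genes, 3 of the 10 (TRAPPC9 ended) and 3 other imprinted genes. Deviations of same-numbered libraries correlated at -0.0376 (replicate 1) and 0.202 (replicate 2). With 2 treated libraries the treated deviations mirror each other, so these values cannot tell whether same-numbered samples were paired. At the reads of CDKN1C and PEG10 (24 to 91), depth limits precision.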

Other observations

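IGF2R and the cation-dependent receptor M6PR carry acid hydrolases to the lysosome. M6PR had 68.4, 66.1 and 70.8 CPM in the controls and 60.6 and 58.4 CPM with ascorbic acid and fell (-0.20 ± 0.05, edgeR adjusted p = 0.0128). Its call ended without control replicate 1 or treated replicate 2 (-0.20 to -0.18, adjusted p = 0.0573 to 0.0659) and under library totals. Of 31 tested genes of acid hydrolases and their sorting 2 rose, 3 fell and 26 did not pass. The glycosidase genes NAGLU (0.33 ± 0.08, edgeR adjusted p = 0.00586) and GAA (0.23 ± 0.06) rose, and MAN2B1 (-0.19 ± 0.05) and HEXA (-0.16 ± 0.05) fell. The GAA call ended without control replicate 1 or treated replicate 1 (0.19, adjusted p = 0.0922 to 0.101), that of MAN2B1 without control replicate 2 or treated replicate 2 (-0.17, adjusted p = 0.0774 to 0.0877), and that of HEXA without any of the 5 libraries in turn (-0.17 to -0.16, adjusted p = 0.0635 to 0.130). The count of 5 was 3 without control replicate 1, control replicate 2 or with cyclic loess, 2 without treated replicate 2, and 11 with GC and length trends removed. Under library totals 4 rose and none fell, so the calls of MAN2B1 and HEXA ended there too (-0.15 and -0.12).

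Among 19 tested PLAG and SCAN zinc finger genes, which include relatives of PLAGL1 and PEG3, PLAGL2 fell (-0.17 ± 0.05, edgeR adjusted p = 0.0285) where PLAGL1 rose, and ZSCAN31 rose (0.41 ± 0.13, edgeR adjusted p = 0.0348). The PLAGL2 call ended without control replicate 1, control replicate 2 or treated replicate 1 (-0.17 to -0.13, adjusted p = 0.0629 to 0.178), and that of ZSCAN31 without any of the 5 libraries in turn (0.32 to 0.49, adjusted p = 0.0511 to 0.2455). The difference between PLAGL1 and PLAGL2 was not tested.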
